A study of Streblospio benedicti with 24 samples.

Results

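The 97 most abundant coding transcripts of the Streblospio benedicti oocyte are described here, a marine annelid worm in which females of one species make either small eggs or large ones. The transcripts were chosen on measured values. Counts of each library were divided by the sum over all genes and scaled to CPM, the usual count per 1000000, coding genes were ranked by mean CPM over the 24 libraries, and the top 100 were taken. Of these, 1 gene was set aside by name, Sbene_G16356, which the study's supplementary material annotates as GAPDH. Another 2, Sbene_G10276 and Sbene_G14613, were set aside because their PP and LL libraries did not overlap in CPM, and 0 because PL and LP did not overlap. The 97 left are 0.48% of the 20221 coding genes counted and are drawn from 26216 genes in all. Because the rule used CPM in every library, the levels themselves, PP against LL and PL against LP are given below as description without a test.

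A growing oocyte is loaded with messenger RNA by the mother, and that store supports the embryo until transcription of its own genome begins. Transcripts at the top of such a store commonly encode machinery that early cleavage draws on, such as cytoskeleton, chromatin, translation and mitochondrial proteins. Planktotrophic S. benedicti females make many small eggs that hatch as feeding larvae, and lecithotrophic females make fewer, larger, yolk-rich eggs whose larvae need not feed.

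Libraries were made from unfertilized oocytes dissected from single females that had been kept apart from males, each library pooling the eggs of 1 female. PP libraries (n = 7) came from lab-reared planktotrophic females descended from a Bayonne, NJ population and LL libraries (n = 7) from lab-reared lecithotrophic females descended from a Long Beach, CA population. The F1 females were laboratory crosses with the maternal allele written first, so that PL females (n = 5) had a planktotrophic mother and LP females (n = 5) a lecithotrophic mother, and both carry one allele set of each kind. Genotype and population cannot be told apart in the parental groups. The reference genome to which all reads were aligned is that of the planktotrophic morph. All 10 F1 libraries and 3 parental ones (PP replicate 7, LL replicates 6 and 7) carry the label "2 tech replicates", and the other 11 parental libraries do not.

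Counts on genes ranged from 7489256 (PL replicate 2) to 43609048 (PP replicate 3) per library, with a median of 19499123. The share of reads that did not align ranged from 20.3% to 66.1%, the highest being PP replicate 2 and next LL replicate 2 at 54.7%. The lowest count of any of the 97 genes in any library was 1075 reads, so that spread between libraries, not counting error, sets the precision. CPM is a share of the library and not a level per transcript length, and a share cannot tell more RNA of one gene from less RNA of the others. Gene identifiers are paired here with a product for only 2 of the 97, the beta-Actin Sbene_G10275 and the Histone H2A Sbene_G20749. The other 95 are named by identifier, and the tissue label could not be checked against marker genes of oocytes or of other cells.

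The 97 genes took 36.8% of all counts on average (SD 4.61 over 24 libraries). The first gene in rank took 7.13%, the first 10 took 15.8% and the first 20 took 21.0%. Just 3 genes exceeded 1% of counts on average, and 81 of the 97 lay below 0.5%. From the first to the last of them the mean level fell 51.1-fold. At the edge of the ranking the last genes inside were Sbene_G03053 at a mean of 1395 CPM and Sbene_G21947 at 1393 CPM, and the first outside were Sbene_G08832 at 1387 and Sbene_G07755 at 1378 CPM. The edge is therefore not a gap in the distribution.

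**Figure D1:**
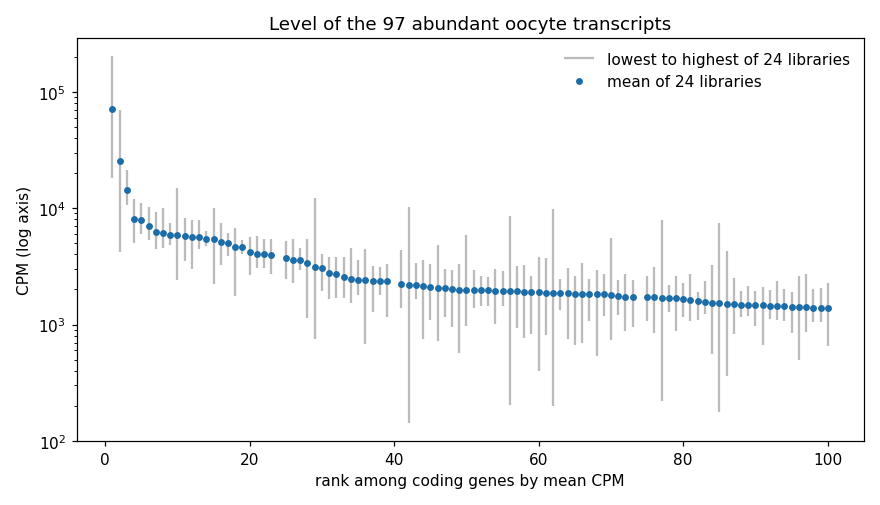
Mean CPM (log axis) of the 97 genes against their rank among coding genes, with a grey line from the lowest to the highest of 24 libraries. Levels drop from 71258 CPM to 14297 CPM over the first 3 ranks and then decline slowly to 1393 CPM, while a few genes at all ranks have very long lines.

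The share taken by the 97 genes ranged more widely in the F1 libraries (SD of 7.67 percentage points in PL and 4.39 in LP) than in the parental ones (1.51 in PP and 2.61 in LL), a difference that was not tested. In PP it ran from 32.4% to 36.6% with a median of 36.1%, and in LL from 33.5% to 40.3% with a median of 36.7%. The PL libraries had 35.2%, 31.2%, 45.9%, 49.9% and 42.4% in replicates 1 to 5, and the LP libraries 30.1%, 29.9%, 39.6%, 37.2% and 36.5%. Thus the highest and the lowest share of the series were both from F1 females, and PL spanned almost that whole range. Most of this range lay in only a pair of genes. Sbene_G11295 and Sbene_G11297 together took from 2.23% (PP replicate 3) to 27.2% (PL replicate 4) of counts. With both genes removed from the numerator and the denominator, the other 95 took 26.4% to 33.7% of the remaining counts, with means of 31.2% ± 1.53 (SD, n = 7) in PP, 29.2% ± 1.81 (n = 7) in LL, 30.2% ± 1.37 (n = 5) in PL and 29.7% ± 1.49 (n = 5) in LP.

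**Figure D2:**
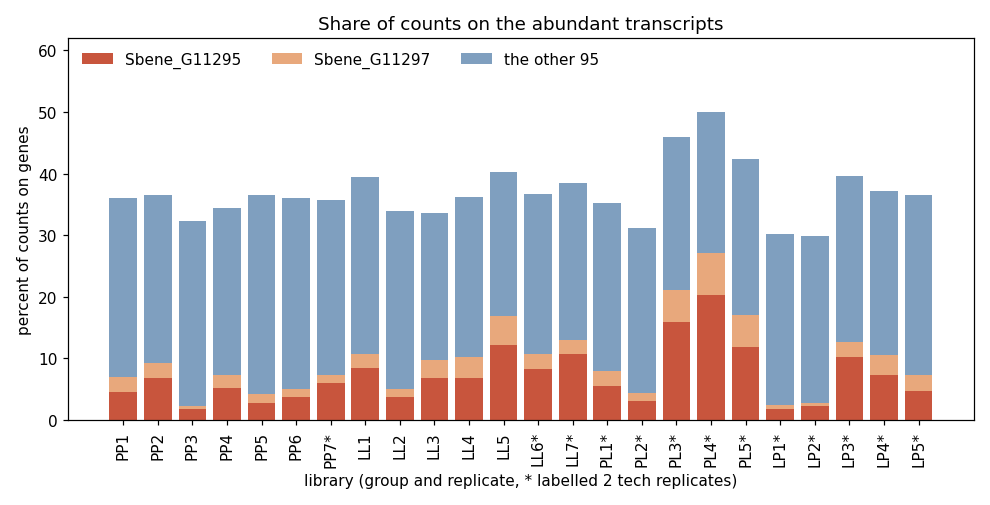
Percent of counts on genes in each library (group and replicate) taken by Sbene_G11295, Sbene_G11297 and the other 95 genes, stacked, with an asterisk on libraries labelled 2 tech replicates. The red and orange parts reach 27.2% in PL replicate 4 and 2.23% in PP replicate 3, while the blue part stays between 22.8% and 32.3%.

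Sbene_G11295 was the most abundant transcript in 23 of 24 libraries and second in PP replicate 3. Its level in PP was 18104 CPM at the lowest, 45993 at the median and 68393 at the highest. In LL the lowest, median and highest were 37996, 82289 and 122635 CPM. The PL libraries gave 55411, 31593, 158781, 202538 and 118078 CPM in replicates 1 to 5. The LP libraries gave 18849, 22392, 102092, 72477 and 46997 CPM. PL replicates 3, 4 and 5 lay above every PP library, and PL replicates 1 and 2 lay within the PP range. In order of group means the gene stood at 113280 CPM in PL (SD 70856), 81616 in LL (SD 27816), 52562 in LP (SD 35098) and 44238 in PP (SD 17693), and each neighbouring pair of groups overlapped.

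Sbene_G11297, second in rank with a mean of 25466 CPM, had a pattern close to that of Sbene_G11295 and an identifier number only 2 away. It ranged from 4214 CPM in PP replicate 3 to 69127 CPM in PL replicate 4, the same 2 libraries that held the extremes of the first gene. Its PL values were 24637, 11876, 53075, 69127 and 52419 CPM, and its LP values 5041, 4653, 24617, 32768 and 26158 CPM. In every library it was below Sbene_G11295, at a ratio of 0.208 to 0.557 with a median of 0.365. Over the 24 libraries the log2(CPM + 1) values of both genes had a Pearson's r of 0.912 (Spearman's rho 0.817, r of 0.872 without the 2 libraries farthest from the median of the first gene, and 0.881 on deviations from group means). Among coding genes with a mean of at least 10 CPM, Sbene_G11297 was the one most like Sbene_G11295, and the next, Sbene_G08887, reached an r of 0.754 at a mean of 21.2 CPM. These coefficients are descriptive, since the genes share libraries and totals, and the closest was picked from 5343 genes. Whether both genes share reads through similar sequence was not tested. The 3 other pairs of the 97 with identifier numbers 1 or 2 apart had an r of -0.03, 0.26 and 0.38.

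The third transcript, Sbene_G15024, was far steadier. It ranged from 10717 CPM (LP replicate 1) to 21191 CPM (PP replicate 3), a factor of 1.98, and held a rank of 1 to 4 in every library. The genes most like it were Sbene_G12368 (r = 0.848, mean 282 CPM) and Sbene_G12289, itself a member of the 97 (r = 0.817, mean 6130 CPM). Ranks 4 to 10 were taken by Sbene_G01248, Sbene_G00970, Sbene_G13061, Sbene_G16978, Sbene_G12289, Sbene_G14958 and Sbene_G09878, whose means fell from 8027 to 5859 CPM. Of these, all but Sbene_G09878 stayed within a 2.38-fold range over all libraries.

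Membership at the top of the ranking was partly stable. Of the 97, 36 were in the top 100 coding genes of every library and 69 in at least 18 of the 24. In contrast 5 were in the top 100 of fewer than 12 libraries, the fewest being 9. In all, 214 coding genes were in the top 100 of some library.

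Spread between libraries of one group was lower for these genes than for coding genes at large, but not uniformly. The within-group SD, pooled over the 4 groups on the log2(CPM + 1) scale, had a median of 0.299 among the 97 and 0.525 among the 5343 coding genes with a mean of at least 10 CPM. The genes compared also differ in level, and the part of level in the SD was not tested. On the log2 CPM scale 11 of the 97 had an SD under 0.2 and 11 an SD over 0.8. The steadiest were Sbene_G00460 (SD 0.11, 4758 to 6395 CPM over all 24 libraries), Sbene_G14958 (SD 0.13, 4847 to 7524 CPM) and Sbene_G20866 (SD 0.13, 4036 to 5378 CPM). For Sbene_G20866 the 4 group means were 4692 CPM in PL, 4648 in PP, 4627 in LL and 4576 in LP, which differ by less than the SD in any group (386 to 468 CPM).

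**Figure D3:**
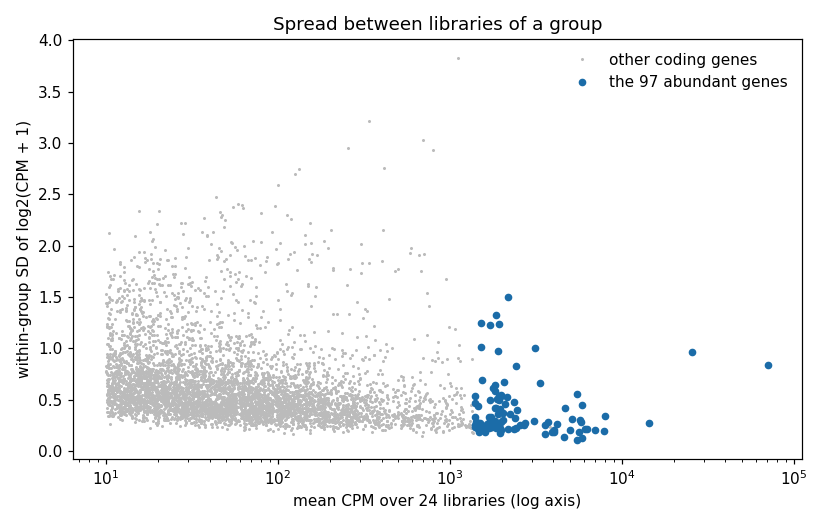
Within-group SD of log2(CPM + 1) against mean CPM (log axis) for coding genes with a mean of at least 10 CPM, each point a gene. The 97 abundant genes (blue) have a median SD of 0.299 against 0.525 over all the genes shown, and a small set of blue points stands above 1.

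The 3 genes with the largest spread were Sbene_G10032 (SD 1.51), Sbene_G05217 (SD 1.33) and Sbene_G17673 (SD 1.25). Sbene_G05217 in PP had a lowest, median and highest level of 200, 1771 and 9850 CPM, and in LL of 499, 2300 and 4152 CPM. Its PL values were 998, 948, 874, 1249 and 460 CPM, and its LP values 591, 1921, 199, 405 and 1614 CPM. The highest value, in PP replicate 3, was 49.5 times the lowest, in LP replicate 3. Another 4 of the 97 followed it with a within-group r above 0.9, namely Sbene_G17673 and Sbene_G18285 (0.99 each), Sbene_G11939 (0.953) and Sbene_G13040 (0.928). That limit was chosen after their values were seen. Together these 5 genes took 3.94% of counts in PP replicate 3 and 0.156% in PP replicate 7. Their summed level had a lowest, median and highest of 1564, 7926 and 39353 CPM in PP and of 3328, 10383 and 17925 CPM in LL. The PL sums were 5809, 5150, 5044, 7427 and 2915 CPM and the LP sums 3329, 7924, 1817, 3416 and 7452 CPM. All 10 F1 sums lay inside the parental range, and the highest of them, 7924 CPM, was level with the PP median and under the LL median. Low F1 sums were partly fixed by the choice of genes, as set out with the F1 tests below.

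Sbene_G10032 did not follow that set. It was highest in LL replicate 1 (10226 CPM) and PP replicate 3 (6859 CPM) and lowest in PL replicate 2 (143.5 CPM), and its rank among coding genes moved between 5 and 1317. The gene closest to it was Sbene_G20390, also one of the 97, with an r of 0.865 (rho 0.855) over the 24 libraries.

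**Figure D4:**
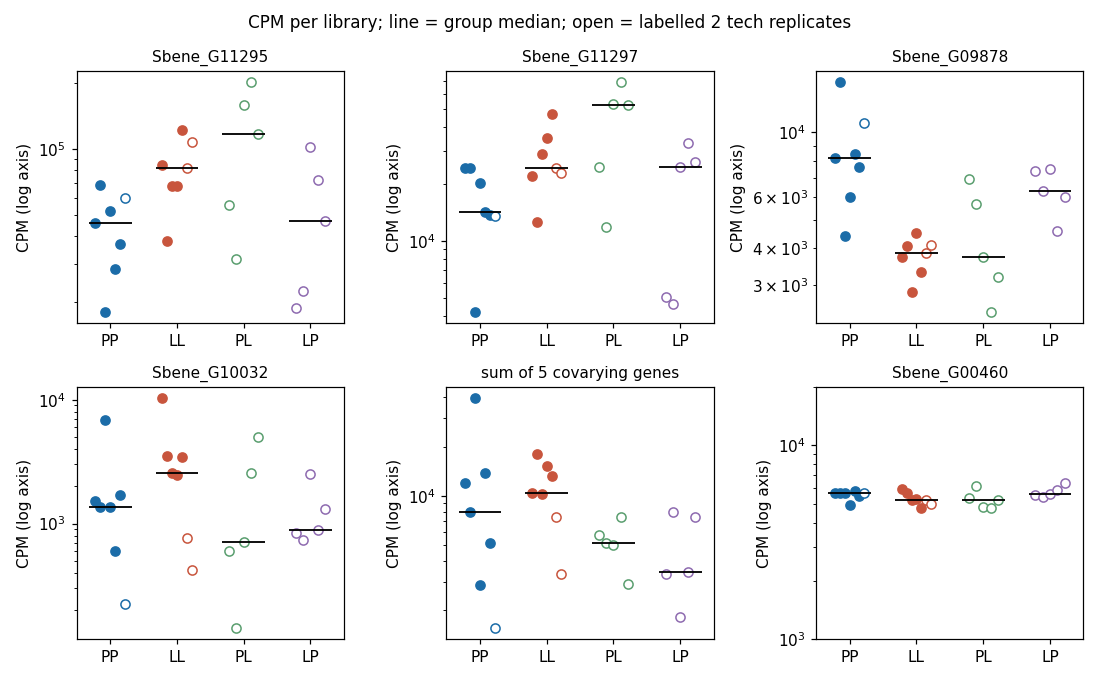
CPM (log axis) of 5 genes and of the summed 5 covarying genes in every library by group, with a line at the group median and open circles for libraries labelled 2 tech replicates. Sbene_G11295 and Sbene_G11297 spread widely in PL and LP, Sbene_G09878 is high in PP and low in LL, labelled parental libraries are low for Sbene_G10032 and for the 5 genes, and Sbene_G00460 is nearly flat.

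By genotype, most of the 97 differed little in mean level. The ratio of the highest to the lowest of the 4 group means had a median of 1.31, against 1.49 for the 5343 coding genes, and was under 1.5 for 72 of the 97 (74.2%, against 51.3%). It exceeded 2 for 9 genes. The gene sets also differ in level, and the part of level was not tested here or in the group pairs below. PP had the highest group mean for 51 of the 97, LP for 20, LL for 18 and PL for 8. LL had the lowest group mean for 39, PL for 35, PP for 14 and LP for 9. Since a library in which Sbene_G11295 takes more of the counts leaves less for every other gene, these CPM orders are relative to that gene.

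Between the parental groups, 69 of the 97 had a higher mean in PP and 28 a higher mean in LL, and 85 (87.6%) were within 1.5-fold, against 78.3% of the 5343 coding genes. The rule had removed the genes whose PP and LL libraries did not overlap, so these counts are a description of what was left. The largest PP to LL ratios of means were those of Sbene_G09878 (2.28), Sbene_G04278 (1.71) and Sbene_G14113 (1.58). The largest LL to PP ratios were those of Sbene_G11295 (1.85), Sbene_G10032 (1.71) and Sbene_G17766 (1.70). For comparison, the genes that the rule removed stood at 3040 CPM in PP and 1514 CPM in LL for Sbene_G10276, and at 2064 and 1372 CPM for Sbene_G14613. Between the reciprocal F1 groups, 89 of the 97 (91.8%) were within 1.5-fold, 33 had the higher mean in PL and 64 in LP. Only Sbene_G11297 (2.26) and Sbene_G11295 (2.16) had a PL to LP ratio above 1.5, and 6 had an LP to PL ratio above 1.5. The PL mean lay between the PP and LL means for 46 of the 97, above both for 10 and below both for 41. The LP mean lay between them for 59, above both for 24 and below both for 14.

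Both genes with a known product overlapped between all groups. For PP against LL and PL against LP the rule fixed this in advance, since it removed genes without overlap. Beta-Actin Sbene_G10275, a main component of the cytoskeleton, had group means of 2485 CPM in PP (SD 880), 2073 in LL (SD 543), 1982 in PL (SD 243) and 2329 in LP (SD 594). Histone H2A Sbene_G20749, a core protein of the nucleosome, had group means of 2511 CPM in PP (SD 646), 2330 in LL (SD 717), 1968 in PL (SD 751) and 2591 in LP (SD 681). Neither was called in any comparison, and in F1 against parents (the edgeR test described next) their log2 fold changes were -0.05 (SE 0.16, adjusted p = 0.940) and -0.09 (SE 0.16, adjusted p = 0.878). The study lists both among the housekeeping genes that it chose as references for normalization. It reports that those references did not differ in expression between eggs of the parental morphs, so a lack of calls here is not independent of that choice. The beta-Tubulin Sbene_G04390, which the rule also names, ranked 146th with a mean of 1091 CPM and was outside the top 100.

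Whether F1 oocytes differ from parental oocytes was tested on counts over all 10782 genes that passed a filter on low counts, with edgeR's quasi-likelihood test and Benjamini-Hochberg adjustment. All 97 passed the filter. According to the study's methods the F1 libraries were sequenced in a separate run from the planktotrophic and lecithotrophic ones, so sequencing run and cross cannot be told apart in F1 against parents, PL against PP or LP against LL. The threshold for a call was a 1.5-fold change together with an adjusted p below 0.1. In the mean of both F1 groups against the mean of both parental groups, 0 of the 97 were called, beside 1.13% of all genes tested. At an unadjusted p under 0.05 there were 8 (8.25%), beside 12.5% of all genes. DESeq2 called 2, beside 3.76% of all genes it tested. Those were Sbene_G05217 and Sbene_G17673, for which the choice of genes had partly fixed the direction, as given in the account of the covarying set. The absolute log2 fold change had a median of 0.10 among the 97 and 0.29 among all genes tested, and 7.22% of the 97 exceeded 1.5-fold against 27.0% of all. All genes tested include many at lower counts, and the part of level in these differences was not tested. The signed median was 0.02 among the 97 and 0.00 over all genes.

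The 4 lowest fold changes in F1 against parents belonged to genes of the covarying set. The selection bears on them, because these genes reached the top 100 through parental libraries and their F1 means lie below the edge of the ranking. All 5 genes of the set were highest in a single library, PP replicate 3, at 9850 CPM for Sbene_G05217 and 7520 CPM for Sbene_G17673. Sbene_G05217 averaged 926 CPM over F1 and 2535 CPM over parental libraries, Sbene_G17673 739 and 2082 CPM, Sbene_G18285 916 and 2264 CPM, Sbene_G13040 1143 and 2483 CPM, and Sbene_G11939 1304 and 2118 CPM. A lower F1 value was thus partly fixed by the choice of genes, and the fold changes are given as description. On the log2 scale they were -1.48 for Sbene_G17673, -1.44 for Sbene_G05217, -1.28 for Sbene_G18285, -1.10 for Sbene_G13040 and -0.67 for Sbene_G11939, with Sbene_G20390 (-0.85) and Sbene_G10032 (-0.70) before the last. None was called by edgeR. Every F1 library carries the label of 2 tech replicates, and its part in these values could be fitted only through the labelled parental libraries. With the label as a covariate the log2 fold change turned to 0.43 for Sbene_G17673 and 0.54 for Sbene_G05217. That fit called 0 of 10782 genes, and its label term rests on 3 labelled parental libraries. Without PP replicate 7, a labelled parental library in which the summed level of the set was lowest, edgeR called Sbene_G17673 and Sbene_G05217. These were 2 of the 97, beside 3.4% of all genes tested in that fit, against 1.13% in the main fit.

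Each F1 group was also set against the parental group that shares its mother's genotype. In PL against PP, 2 of the 97 were called (2.06%), beside 2.26% of all genes tested. By direction 1 was higher and 1 lower, beside 1.46% and 0.807% of all genes. At an unadjusted p under 0.05 there were 13 (13.4%), beside 14.7% of all genes, and DESeq2 called 3, beside 6.26%. The median absolute log2 fold change was 0.17 among the 97 and 0.46 among all genes, which differ in level as well.

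Sbene_G11295, whose values are given above, was higher in PL than in PP by a log2 fold change of 1.57 (SE 0.46, edgeR adjusted p = 0.0996). This value is at the threshold, and leaving out single libraries put the adjusted p between 0.0412 and 0.313. The call was lost in 16 of 24 such fits, namely without any of PP replicates 1 to 6, LL replicates 1 and 3 to 7, PL replicates 3 to 5 and LP replicate 5. With the label as a covariate the log2 fold change was 1.27 with an adjusted p of 0.541, and among the 13 labelled libraries alone it was 1.27 with an adjusted p of 0.855. The call was also lost with median-of-ratios scaling (adjusted p of 0.103), with PP replicates 5 and 6 summed (0.161) and with the replicate number as a block (0.225), whereas DESeq2 kept it (0.0424). In LP against LL the same gene had a log2 fold change of -0.61 (SE 0.47, edgeR adjusted p = 0.636). Sbene_G11297 had a log2 fold change in PL against PP of 1.57 (SE 0.50, edgeR adjusted p = 0.128), which did not pass.

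Sbene_G09878 was lower in PL than in PP. Its level in PP was 4423 CPM at the lowest, 8206 at the median and 14880 at the highest, and in LL 2822, 3870 and 4526 CPM. The PL libraries had 6950, 5701, 3725, 2425 and 3178 CPM. The LP libraries had 7379, 6295, 7498, 4596 and 6013 CPM. PL replicates 3 to 5 lay below every PP library, PL replicates 1 and 2 lay within the PP range, and every LP library lay above every LL library. The log2 fold change in PL against PP was -0.96 (SE 0.24, edgeR adjusted p = 0.0576), and in LP against LL 0.76 (SE 0.23, edgeR adjusted p = 0.155). The call in PL against PP was lost without PP replicate 2 or any of PL replicates 3 to 5, with an adjusted p over all left-out libraries of 0.0281 to 0.163. It was also lost with the label as a covariate, at a log2 fold change of -1.11 and an adjusted p of 0.306. Among parental libraries PP and LL overlapped in this gene only through PP replicate 3, at 4423 CPM.

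In LP against LL, 0 of the 97 were called by edgeR, beside 1.16% of all genes tested. At an unadjusted p under 0.05 there were 11 (11.3%), beside 12.3%, and DESeq2 called 1, beside 4.08%. That gene was Sbene_G17830, named after its values were seen, with 1294, 2056 and 2714 CPM as the lowest, median and highest in LL and 1045, 1352, 1448, 899 and 1095 CPM in LP. The groups overlapped in it, and its edgeR log2 fold change was -0.76 (SE 0.23, adjusted p = 0.135). The selection bears on this gene too, because its highest values were in LL. All its PL libraries (888 to 1138 CPM) lay under the edge of the ranking. A lower LP than LL was thus partly fixed by the choice of genes. The median log2 fold change of the 97 was 0.13 in LP against LL, with 69 positive and 28 negative, and -0.10 in PL against PP, with 37 positive and 60 negative. Over all genes tested the medians were -0.01 and 0.01. In PL against PP the median of the 97 was -0.01 with the label as a covariate (0.05 over all genes) and turned to 0.11 in labelled libraries only (0.20 over all genes). In LP against LL it stayed positive, at 0.18 with the label as a covariate (0.03 over all genes). In labelled libraries only it was 0.10 there (0.03 over all genes).

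**Figure D5:**
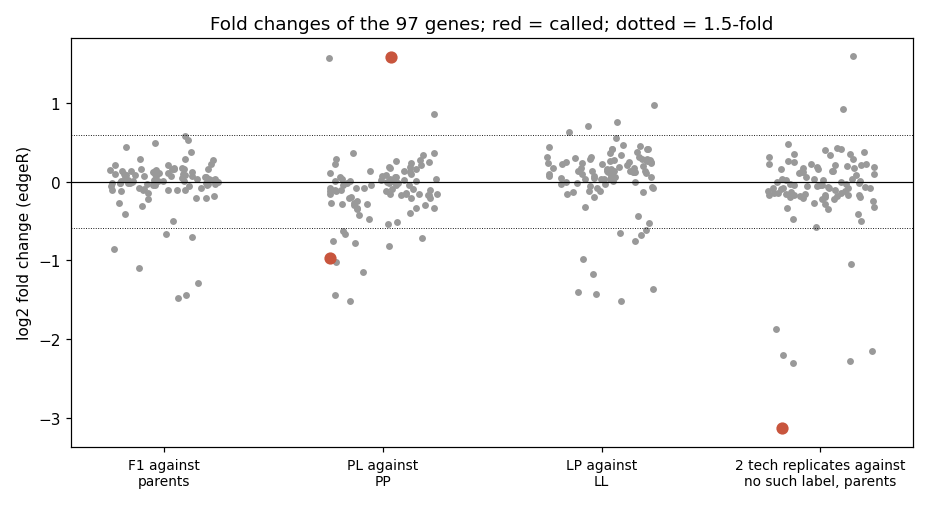
Log2 fold changes from edgeR of the 97 genes in 4 comparisons, each point a gene, red where called, with dotted lines at 1.5-fold. Most points lie between the dotted lines, and the called ones are Sbene_G11295 (1.57) and Sbene_G09878 (-0.96) in PL against PP and Sbene_G10032 (-3.13) in the comparison by label among parents.

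To see how far the label itself moves with these transcripts, the 3 labelled parental libraries were compared with the 11 others within genotype, over 9392 genes. Of the 97, 1 was called (1.03%), beside 1.31% of all genes, and it was lower, beside 0.618% of all genes. At an unadjusted p under 0.05 there were 10 (10.3%), beside 11.6%, and DESeq2 called 7, beside 5.54%. Sbene_G10032 stood at 223 CPM in PP replicate 7, 760 in LL replicate 6 and 418 in LL replicate 7, and at 600 to 10226 CPM in the unlabelled parental libraries, which overlap with LL replicate 6 through PP replicate 5. Its log2 fold change was -3.13 (SE 0.76, edgeR adjusted p = 0.0820). The call was lost in 7 of 14 fits with 1 library left out, those without PP replicate 2 or 7 or LL replicate 1, 2, 5, 6 or 7, where the adjusted p reached 0.434. Here too the selection bears on the value, because Sbene_G10032 averaged 3237 CPM in the unlabelled parental libraries, 467 CPM in the labelled ones and 1523 CPM in F1, and so reached the top 100 through the unlabelled ones. As description, the 5 covarying genes had log2 fold changes by label of -2.28 for Sbene_G05217, -2.20 for Sbene_G17673, -2.15 for Sbene_G18285, -1.86 for Sbene_G13040 and -1.04 for Sbene_G11939, and none was called by edgeR. The selection bears on these genes as well, because all 5 were highest in an unlabelled parental library, PP replicate 3. In PP replicate 7 and LL replicates 6 and 7, Sbene_G05217 stood at 200, 1424 and 499 CPM. Sbene_G17673 stood there at 178, 1151 and 524 CPM. A lower level with the label was thus partly fixed by the choice of genes. What the label stands for beyond its wording is not given in the sources used here.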

How the data were processed

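RNA-seq of pooled unfertilized oocytes was analysed in 24 libraries. The authors trimmed reads with Trim Galore, removed ribosomal reads, aligned the rest of these stranded libraries with HISAT2 and counted with HTSeq, and they deposited raw counts per gene for each library. Versions and the strand setting of the counting are not given in the sources used here. Reads that align to more than 1 place (0.82% to 2.33% of a library) were not assigned to genes, which lowers the counts of genes with near-identical copies. Summary lines that name no gene were left out of totals.

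CPM, shares and spreads were computed from these counts in Python 3.11.15 with pandas 2.3.3. Genes were tested with edgeR 4.0.16 (filterByExpr, TMM, 1 mean per group, all 24 libraries) in R 4.3.3, and by label in the 14 parental libraries with genotype and label as terms. Fits were tested on simulated data. DESeq2 1.42.0 and other settings were tried as alternatives. TMM factors ran from 0.780 (PL replicate 4) to 1.18 (PL replicate 2). No pair of libraries of one group agreed within sampling noise. Libraries come from different females, and p-values cover the spread between them. PP replicates 5 and 6 have file names that share a stem, so they were also summed. The rule for naming took the 10 highest means, called genes, the 3 lowest and 3 highest within-group SDs, the 3 largest PP to LL ratios each way, the edge of the ranking and the genes removed. The 97 genes and the rules were chosen with earlier results of these data known. The lists of products planned for the pathways and cell types were not used here, since identifiers are not paired with products.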

Additional observations from a re-analysis of the deposited data

Results flagged for a closer look

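In 84 group-wise checks of the shares and named genes for a library far from the rest of its group (Dixon's gap at its 95% critical value), 7 stood out. Chance alone gives about 1 in 20 groups, but that rate does not apply to genes named for their large or small spread, on which 5 of the 7 fell. PP replicate 3 was highest in PP for Sbene_G10032 (6859 CPM, next 1699), Sbene_G05217 (9850 CPM, next 2986) and Sbene_G17673 (7520 CPM, next 2151), and the last pair belongs to the covarying set. LL replicate 1 was highest in LL for Sbene_G10032 (10226 CPM, next 3514). PP replicate 4 was lowest in PP for Sbene_G00460 (4928 CPM, next 5512), the steadiest of the 97. Sbene_G04278 was highest in LL replicate 3 (3167 CPM, next 1252) and in LP replicate 3 (3833 CPM, next 1511). The causes were not tested. Of the 97 genes, 0 moved in opposite directions with no overlap in PL against PP and LP against LL. The share of all coding genes that did so is not given here, so this count cannot be read as particular to the 97.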

How the results depend on the processing

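The number of the 97 genes called is given with the share of all genes called in brackets. In F1 against parents it was 0 and became 2 with DESeq2 (3.76%). In PL against PP it was 2. It fell to 1 with median-of-ratios scaling (2.23%) and to 1 with PP replicates 5 and 6 summed (1.27%). With the label as a covariate it was 0 (0.0371%), and in labelled libraries only it was 0 (0.0157%). In LP against LL it was 0 and became 1 with DESeq2 (4.08%). By label among parents it was 1 and became 7 with DESeq2 (5.54%). There it was 2 with PP replicates 5 and 6 summed (1.74%) and 7 without a low-count filter (2.68%). Leaving out single libraries gave 0 to 2 calls in F1 against parents (0.769% to 3.4%) and 0 to 4 in PL against PP (0.685% to 5.14%). It gave 0 to 1 in LP against LL (0.334% to 1.83%) and 0 to 6 by label (0.506% to 2.31%). Same-numbered libraries of different groups had deviations with a median r of 0.01 (32 pairs, r from -0.21 to 0.44). Libraries of unlike number had a median r of -0.01 (182 pairs, r from -0.32 to 0.39). These coefficients cannot exclude that the number pairs some samples. With the replicate number as a block the counts were 5, 2, 4 and 0 in that order of comparisons. Beside them stood 4.97%, 6.07%, 3.87% and 0.181% of all genes. The share of counts on the 97 genes (36.8%) ranged from 35.3% to 36.8% under other rankings, scalings and denominators and from 32.9% to 37.1% with a library left out, and 94 to 97 genes or, with a library left out, 86 to 97 met the rule, the fewest without PP replicate 2. The cause of these shifts was not tested. Only 3 of 14 parental libraries carry the label, which limits any adjustment for it.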
